A study of Mus musculus with 12 samples.

Results

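Autophagy is the route by which a cell encloses part of its own cytoplasm in a double membrane and delivers it to lysosomes. Genes of its machinery and of its cargo receptors were chosen by symbol from the count table of all genes: the numbered Atg genes, the LC3 and GABARAP genes, Ulk1 to Ulk3, Wipi1, Wipi2, Becn1, the lipid kinase genes Pik3c3 and Pik3r4 with their partners, the receptor genes Sqstm1, Nbr1, Calcoco1 and Tax1bp1, the mitophagy genes Pink1, Fundc1 and Fundc2, the kinase gene Tbk1 and 6 genes of the tethers that fuse autophagosomes with lysosomes. The table held 47 such genes among 12637. Optn and Atg9b also fall under the choice and were not analysed here. The choice was by symbol and not by measured values, although earlier results of these data were known when it was made.

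Immortalised mouse embryonic fibroblasts (MEFs) were profiled by sequencing of polyadenylated RNA, in 4 groups of 3 libraries: wild-type cells (WT) with the solvent DMSO, WT with doxycycline (Dox, 30 µg/ml for 24 hours), CBP/p300 knockout cells (KO) with DMSO, and KO with Dox. Cells of all 4 groups were in 10% fetal bovine serum. CBP and p300, encoded by Crebbp and Ep300, are paralogous coactivators that acetylate histones and other proteins, and Dox, besides its use against bacteria, inhibits translation in mitochondria. Per the labels, KO cells were made from MEFs with floxed alleles of both genes (fl/fl) and a stably expressed Cre-ERT2, a Cre recombinase that 4-hydroxytamoxifen switches on, and no antibiotic other than Dox was present during treatment. The sources used here do not say whether WT cells were given 4-hydroxytamoxifen, how many cell lines or clones there were, or whether replicates were separate cultures. The p-values therefore rest on the spread among libraries, and part of it may be technical only.

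In brief, starvation or organelle damage activates the ULK1 kinase complex, the VPS34 lipid kinase marks the site where the membrane forms, ATG9 vesicles and the lipid transfer protein ATG2 feed that membrane, and 2 conjugation chains attach LC3 and GABARAP proteins (the ATG8 family) to it. Cargo receptors bind ubiquitin-tagged proteins or organelles on one side and ATG8 proteins on the other. Many of these genes are known to be induced by the transcription factors TFEB, TFE3, FOXO and ATF4. Transcript levels do not measure autophagic flux, which was not assayed here.

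Between 44476039 and 52173143 reads per library were counted in genes, and the lowest count of any of the 47 genes in a library was 232, for Atg10. Crebbp had 65.8 to 67.8 CPM (read counts scaled for library size) in WT DMSO and 58.8 to 60.4 in KO DMSO, and Ep300 had 192 to 200 and 120 to 128; counts over whole genes include exons outside the floxed part and do not check the deletion. The cell type label was checked against 10 fibroblast markers, of which 9 were measured. Their summed level was 12700 to 13200 CPM in the WT libraries and 2930 to 3430 in the KO libraries, where the mean of Vim was 156 CPM with DMSO against 2020 in WT and that of Col3a1 was 1.82 against 823. Of 5 macrophage markers 2 were measured, Cd68 and Csf1r, with a sum of 1.55 to 3.01 CPM in WT and 21 to 25.9 in KO. Only Cd68, which encodes a lysosomal membrane protein, was much higher in KO (mean 1.5 CPM in WT DMSO and 24.3 in KO DMSO). Csf1r had means of 1.39 CPM in WT DMSO and 0.98 in KO DMSO, and 0.615 and 0.664 with Dox. Of 4 endothelial and 4 epithelial markers 0 were in the table. The part of these marker differences in the KO results below was not tested, and in bulk RNA a change in the make-up of the cells cannot be told apart from a change of RNA per cell. Libraries also differed in a way the groups do not give: averaged over 256 processed pseudogenes, log2 CPM was 0.35 to 0.39 below the mean of its genotype in the 3 WT DMSO libraries and 0.62 below it in KO DMSO replicate 1, and 0.10 to 0.39 above it in the other 8 libraries. The name low-pseudogene set is used below for these 4 libraries. No WT Dox library was in the set, so set and Dox cannot be told apart within WT. KO DMSO replicates 1 and 2 also had 7.63% and 6.65% of reads unmapped, against 1.85 to 2.09% in the other 10 libraries.

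Most of the machinery was higher in KO than in WT. With DMSO, 40 of the 47 genes were higher in KO, 4 were lower and 3 did not pass (edgeR's quasi-likelihood test, adjusted p under 0.05 over all 12637 genes). KO and WT differed across the whole table: 45.1% of all genes were higher by the same rule and 44.3% lower. The median log2 fold change was 0.64 over the 47 genes and 0.02 over all genes. With Dox in both genotypes, 42 were higher, 3 lower and 2 not passed, against 45.1% and 44.8% of all genes, with medians of 0.72 and 0.01. The 40 genes higher with DMSO were all among the 42 higher with Dox, and the 3 lower with Dox (Atg10, Atg3 and Fundc2) were all among the 4 lower with DMSO. The DMSO and Dox libraries are different libraries, so these are separate comparisons. How far the calls of all genes were shared between them was not counted.

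The differences were mostly below 2-fold. Passing the test with at least 2-fold, 9 of the 47 genes were higher with DMSO (10.8% of all genes) and 0 were lower (16.7% of all genes). With Dox these were 11 (10.8% of all genes) and 0 (16.6%). WT and KO libraries did not overlap for 44 of 47 genes with DMSO and 45 of 47 with Dox, against 89.8% and 89.7% of all genes. The summed level of the 47 genes was 3290 CPM in each WT DMSO library and 5220 to 5240 CPM in the KO DMSO libraries, with 3160 to 3180 in WT Dox and 5040 to 5060 in KO Dox. KO DMSO replicate 1, in the low-pseudogene set, differed from replicates 2 and 3 by -0.15 (Fundc2) to 0.11 (Atg10) in log2 over the 47 genes, with a median of 0.01.

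**Figure D1:**
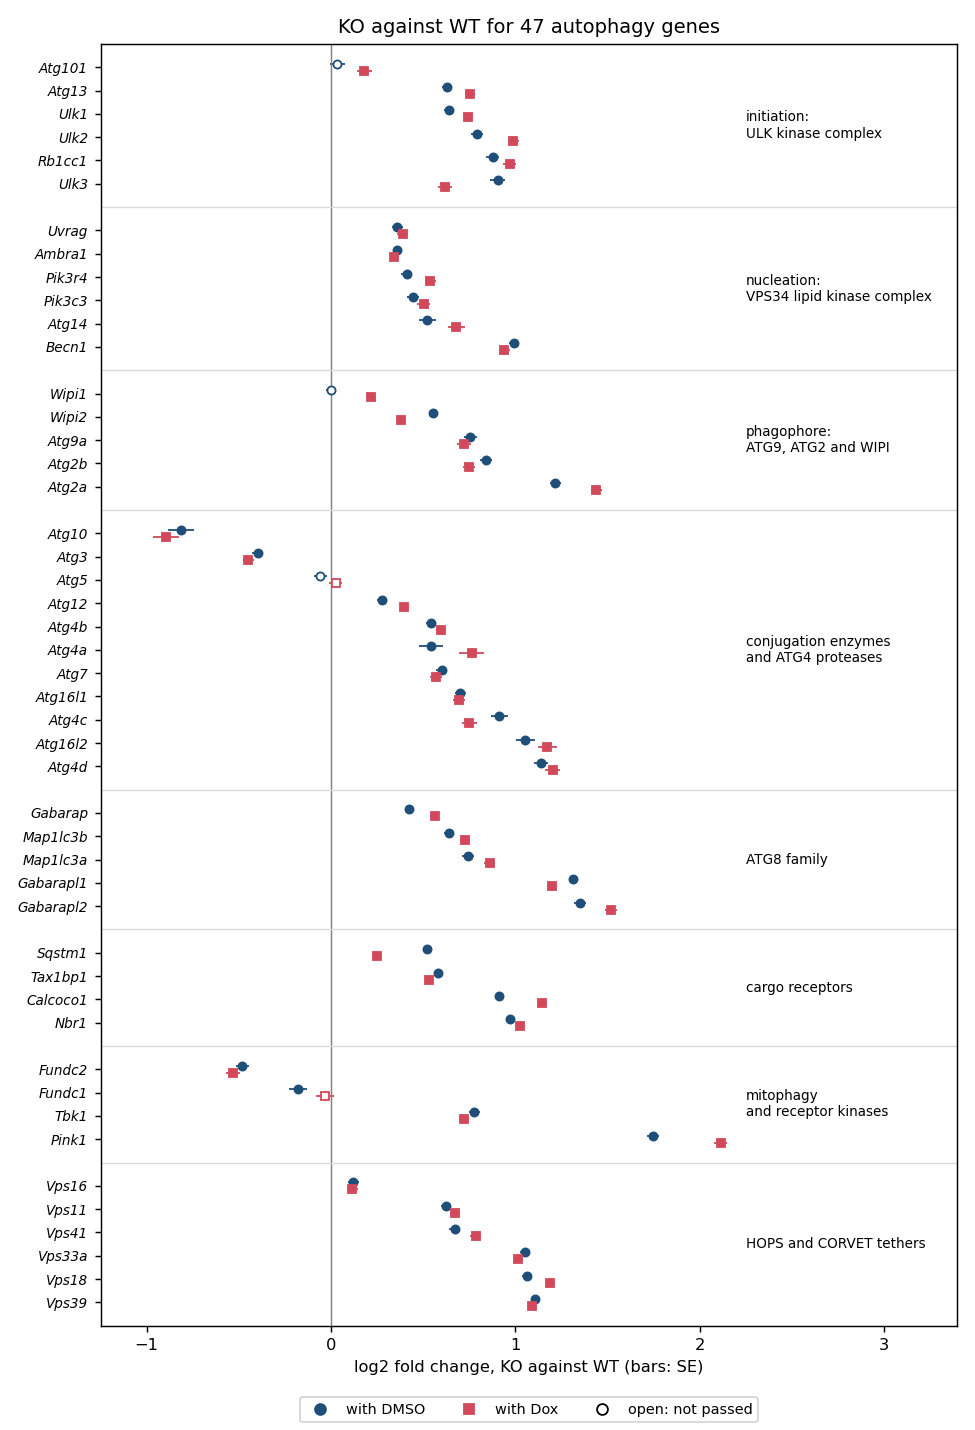
Log2 fold change of KO against WT for each of the 47 genes, grouped by role, with DMSO (circles) and with Dox (squares). Bars are the SE (n = 3 and 3) and open symbols did not pass the test. Pink1 lies farthest to the right, Atg10 and Fundc2 farthest to the left.

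**Figure D2:**
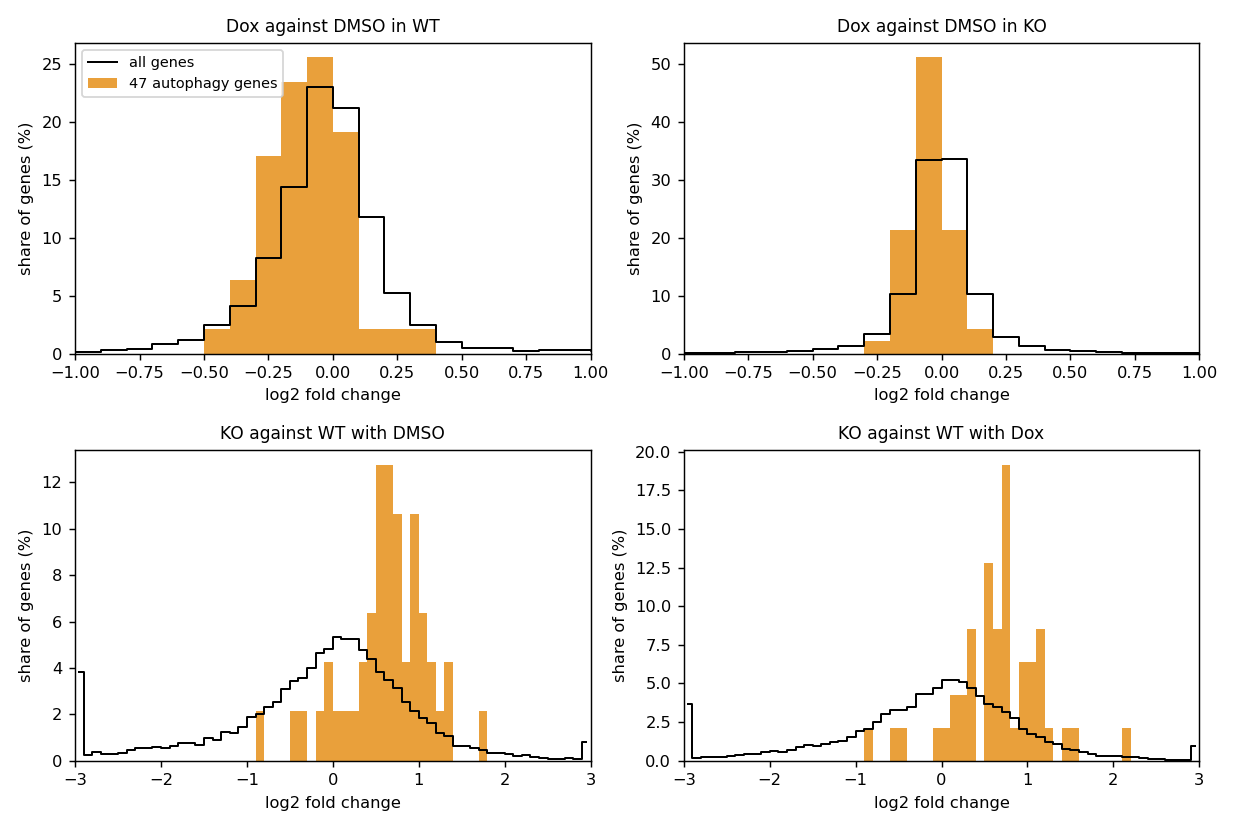
Share of genes (%) by log2 fold change for the 47 autophagy genes (filled) and for all genes (line), in 4 comparisons. In both KO comparisons most filled bars sit to the right of the peak of the line, with medians of 0.64 and 0.72. The KO panels gather values past their limits in the outermost bins, and the Dox panels leave out values past 1 in either direction.

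Among the initiation genes, 5 of 6 were higher in KO with DMSO and all 6 with Dox. Ulk3, a kinase related to ULK1, had 16.6, 16.8 and 16.7 CPM in WT DMSO and 32.2, 30.4 and 31.1 CPM in KO DMSO. The groups did not overlap, and the log2 fold change was 0.90 ± 0.0401 (adjusted p = 1.34e-16, edgeR). Here and below, ± is the SE, with n = 3 and 3 where a pair of groups is compared, unless SD is named. Rb1cc1, which encodes the scaffold FIP200, was higher by 0.88, Ulk2 by 0.79, Ulk1 by 0.64 and Atg13, the regulatory subunit, by 0.63. Atg101, which stabilises ATG13, had 29.5, 29.1 and 29 CPM in WT DMSO and 30.5, 29.1 and 30 CPM in KO DMSO, and did not pass (0.03, adjusted p = 0.429, edgeR). With Dox it was higher in KO by 0.18 (adjusted p = 2.66e-04, edgeR).

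All 6 nucleation genes were higher in KO in both comparisons, most of them by little. Becn1, the subunit that recruits VPS34 regulators, had 63.8, 62.1 and 66.9 CPM in WT DMSO and 124, 131 and 129 CPM in KO DMSO, 0.99 ± 0.0295 higher on the log2 scale (adjusted p = 3.59e-20, edgeR). The KO libraries were all close to 2 times the WT libraries (fold 1.99). Of the annotated exon bases of Becn1, 43.9% are shared with Cntd1 on the opposite strand, and reads of the pair cannot be told apart where strand is not used. Atg14, which directs the complex to autophagy, was higher by 0.52, Pik3c3 (the VPS34 kinase itself) by 0.45, Pik3r4 (its VPS15 subunit) by 0.41, and Uvrag and Ambra1 by 0.36 each.

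Of the 5 genes that supply the growing membrane, 4 were higher in KO with DMSO. Atg2a, one of a pair of lipid transfer proteins, had 56.7, 55.3 and 54.7 CPM in WT DMSO and 135, 127 and 125 CPM in KO DMSO. It was higher by 1.22 ± 0.0297 (adjusted p = 6.3e-22, edgeR), and its partner Atg2b by 0.84 ± 0.0329. Atg9a, the vesicle protein that scrambles lipids, was higher by 0.76, although 31.8% of its exon bases are shared with Gm29253 on the same strand. Among the WIPI proteins, which read the VPS34 lipid, Wipi2 was higher by 0.55 ± 0.0204. Wipi1 had 129, 131 and 127 CPM in WT DMSO and 129, 130 and 128 in KO DMSO, overlapping groups that differed by -0.00 ± 0.0219 in log2 (adjusted p = 0.907, edgeR). With Dox it was higher in KO by 0.22 ± 0.0222. Without TMM scaling, which moves the median of all genes to 0.17, Wipi1 (0.14) and Atg101 (0.18) also passed as higher in KO with DMSO.

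A pair of conjugation enzymes was lower in KO. Of the 11 conjugation genes 8 were higher in KO and 2 lower, in both comparisons. Atg10, the E2-like enzyme that attaches ATG12 to ATG5, had 8.36, 8.65 and 8.31 CPM in WT DMSO and 5.04, 4.95 and 4.42 CPM in KO DMSO. All KO libraries were below all WT libraries, and the difference was -0.81 ± 0.0714 in log2 (adjusted p = 1.2e-10, edgeR), and -0.90 ± 0.0703 with Dox. Atg3, the E2-like enzyme that attaches ATG8 proteins to lipid, had 49, 49.5 and 50.3 CPM in WT DMSO and 36.7, 38.5 and 37.9 in KO DMSO, and was lower by -0.40 ± 0.0301 (adjusted p = 7.07e-12, edgeR). Atg7, the E1-like enzyme that serves both chains, was higher by 0.60 ± 0.0304. Atg5, the acceptor of ATG12, had 27.6, 28.5 and 28.4 CPM in WT DMSO and 27.3, 27.8 and 26.1 in KO DMSO and did not pass in either comparison (-0.06, adjusted p = 0.132 with DMSO, and 0.03, adjusted p = 0.503 with Dox, edgeR). Its direction with DMSO depended on the processing: it passed as higher in KO without TMM scaling (0.09) and as lower without KO DMSO replicates 1 and 2 together (-0.12).

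The remaining conjugation genes were all higher in KO. All 4 ATG4 proteases, which trim ATG8 proteins and release them from lipid, were among them. Their log2 fold changes were 0.54 for Atg4a, 0.54 for Atg4b, 0.91 for Atg4c and 1.14 for Atg4d. Atg4a, with 2661 exon bases, has a near-identical copy, Atg4a-ps (99.3% identity over 2115 bases), which was not analysed here. How far reads that match both affect the Atg4a level was not tested. Atg4d had 16.3, 15.7 and 14.7 CPM in WT DMSO against 34.4, 34.5 and 34 in KO DMSO, and shares 19.3% of its exon bases with Kri1 on the opposite strand. With Dox the Atg4d libraries were at 14.4, 14.9 and 14.6 CPM in WT and 33.7, 33.9 and 33.3 CPM in KO, 1.20 ± 0.0394 higher in log2 (adjusted p = 2.59e-19, edgeR). Atg16l1, the scaffold that places the conjugation machinery on the membrane, was higher by 0.70 with DMSO, its relative Atg16l2 by 1.05, and Atg12 by 0.27. Per kilobase of annotated exon, Atg16l2 had the lowest level of the 47 genes in WT DMSO (1.2 CPM per kb).

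All 5 ATG8 family genes were higher in KO, by unequal amounts. Gabarapl2, which encodes GATE-16, had 40.1, 37.6 and 38.2 CPM in WT DMSO and 96.3, 99.3 and 100 CPM in KO DMSO, and the KO libraries were all more than 2 times the WT libraries. Its log2 fold change was 1.35 ± 0.0307 (adjusted p = 1.34e-22, edgeR). Gabarapl1 had 80.7, 80.8 and 83 CPM in WT DMSO and 201, 207 and 201 CPM in KO DMSO, a change of 1.31 ± 0.025. Map1lc3a, which encodes LC3A, had 49, 47.3 and 46.2 CPM in WT DMSO and 79.4, 80.8 and 78.3 in KO DMSO (0.74 ± 0.0313). Map1lc3b, the LC3B gene that is the usual autophagosome marker, had 81, 79.5 and 83.2 CPM in WT DMSO and 125, 127 and 128 in KO DMSO (0.64 ± 0.0261). Gabarap had 163, 162 and 159 CPM in WT DMSO and 214, 217 and 219 in KO DMSO (0.42 ± 0.0239). No WT library of any ATG8 gene reached a KO library, and all 5 differences passed with DMSO and with Dox.

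The make-up of the ATG8 transcript pool thus differed between the genotypes. Per kilobase of annotated exon the family summed to 196 ± 2.08 CPM in WT DMSO and 345 ± 4 in KO DMSO (SD, n = 3 each). Gabarap held 44.8% ± 0.379 of that sum in WT DMSO and 34.1% ± 0.306 in KO DMSO. Gabarapl1 held 20.7% ± 0.458 and 29.2% ± 0.3, and Gabarapl2 8.49% ± 0.212 and 12.3% ± 0.153. Map1lc3a held 20.5% ± 0.451 and 19.5% ± 0.265, and Map1lc3b 5.52% ± 0.145 and 4.89% ± 0.0603. The shares of all 5 genes were separate between WT DMSO and KO DMSO libraries. These shares use the union of all annotated exons as length, so a gene with long rarely used exons is understated. Gabarapl2 and Map1lc3b have near-identical processed pseudogenes in the table (Gm3724, 99.4% identity over 349 bases, and Gm6055, 99.7% over 378 bases), whose group means were at most 1.68 and 1.13 CPM. Of the Gabarapl1 exon bases 28.3% are shared with 1700101I11Rik on the opposite strand.

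**Figure D3:**
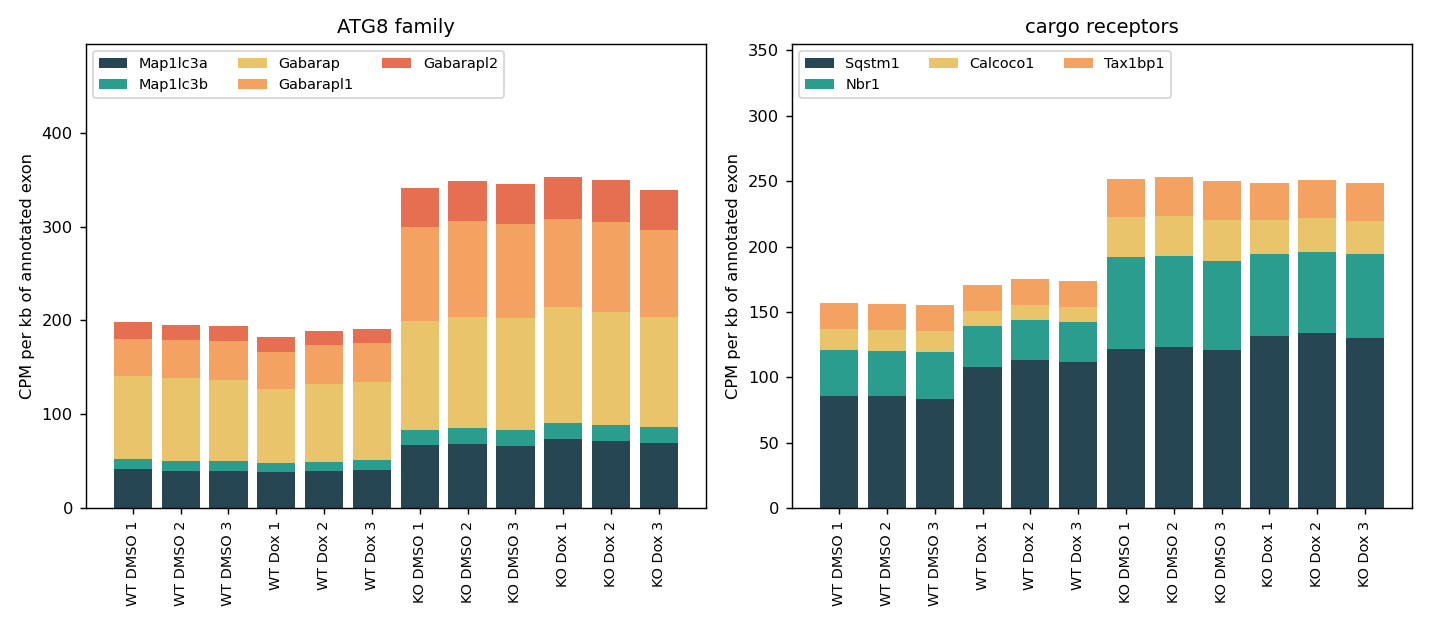
Stacked level of the ATG8 family (left) and of the cargo receptors (right) in each library, in CPM per kb of annotated exon. The ATG8 stacks of the KO libraries are higher than all WT stacks, and within the receptor stacks of WT the Sqstm1 part is larger with Dox.

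The 4 cargo receptor genes were all higher in KO. Nbr1, a receptor for ubiquitin-tagged proteins and peroxisomes, had 242, 239 and 244 CPM in WT DMSO and 479, 478 and 470 CPM in KO DMSO, 0.97 ± 0.0209 higher (adjusted p = 4.22e-23, edgeR). Calcoco1, a receptor for endoplasmic reticulum and Golgi membranes, had 94.2, 93 and 94.5 CPM in WT DMSO and 176, 178 and 177 in KO DMSO (0.91 ± 0.0224). Tax1bp1, which binds ubiquitin-tagged aggregates, had 198, 197 and 198 CPM in WT DMSO and 289, 299 and 298 in KO DMSO (0.58 ± 0.0217). Sqstm1, which encodes p62, had 287, 287 and 281 CPM in WT DMSO and 408, 413 and 406 in KO DMSO (0.52 ± 0.0219). In none of them did the genotypes overlap. Sqstm1 shares 17.3% of its exon bases with Mrnip on the opposite strand.

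Pink1 had the largest KO difference of the 47 genes. It encodes the kinase that accumulates on damaged mitochondria and starts their removal by mitophagy. Its libraries were at 27.2, 25 and 26.8 CPM in WT DMSO and 89.3, 88 and 88.1 CPM in KO DMSO, so each KO library was over 3 times each WT library. The log2 fold change was 1.75 ± 0.034 with DMSO (adjusted p = 5.35e-24, edgeR) and 2.12 ± 0.0353 with Dox (adjusted p = 2.69e-25, edgeR). Tbk1, which phosphorylates receptors, was higher by 0.78 ± 0.0292. Fundc1, a mitophagy receptor of the outer mitochondrial membrane, and its relative Fundc2 went the other way. Fundc2 had 86.2, 83.6 and 84.6 CPM in WT DMSO and 56.6, 61.2 and 64.2 in KO DMSO, lower by -0.48 ± 0.0356 (adjusted p = 1.07e-11, edgeR). Fundc1 had 15.8, 16.6 and 16.2 CPM in WT DMSO and 13.5, 14.1 and 15.2 in KO DMSO, lower by -0.18 ± 0.0493 (adjusted p = 0.00164, edgeR). The Fundc1 call ended without TMM scaling (-0.03) and without KO DMSO replicates 1 and 2 together (-0.10), and with Dox its value was -0.03 (adjusted p = 0.512, edgeR).

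The HOPS and CORVET tethers, which hold late endosomes, lysosomes and autophagosomes together before fusion, were all higher in KO. Vps39, a HOPS subunit, had 55.9, 55.7 and 57.2 CPM in WT DMSO and 122, 122 and 120 in KO DMSO, a log2 fold change of 1.11 ± 0.0261. Vps18 was higher by 1.07 and Vps33a by 1.05, both subunits of the shared core, and Vps41, the other HOPS-specific subunit, by 0.67. Vps11, also of the core, was higher by 0.62. Vps16, a core subunit that binds VPS33A, had 59, 57.2 and 55.4 CPM in WT DMSO and 63.4, 62.2 and 61.1 in KO DMSO, higher by 0.12 ± 0.0304. Its call with DMSO ended without KO DMSO replicates 1 and 2 together, and its values over the alternatives ran from 0.08 to 0.27.

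Promoter sequences were read for the genes that RefSeq places on GRCm38.p6, from 250 bases before the annotated start to 50 after it. Promoters were matched for 39 of the 47 genes, 43 promoters in all. The letters GTCACGTG, the start of the CLEAR element that TFEB and TFE3 bind, were searched on both strands. They were present for 6 of the 39 genes (15.4%), Atg14, Atg3, Atg7, Tbk1, Vps16 and Vps33a, and for 2.55% of the 27025 genes with a promoter. The promoters read for Atg7 and Atg14 lie inside the genes as annotated in GENCODE M21, at later starts. That of Atg7 begins at chr6:114670846 and the gene at 114643097 (plus strand). That of Atg14 reaches to chr14:47568684 and the gene to 47570649 (minus strand). The shorter E-box CACGTG, which every GTCACGTG contains, was present for 7 of 39 (17.9%; 8.09% of all genes), the 6 above and Atg5. The C/EBP-ATF letters TGATGNAA were present for 0 of 39 (4.51% of all genes). These shares of all genes are over the 27025 genes, which include genes absent from the count table. Shares among the 12637 genes of that table were not counted, so the backgrounds are unlike. Below are 4 promoters that hold GTCACGTG, from genes with unlike KO differences (log2 fold change with DMSO 1.05 for Vps33a, 0.78 for Tbk1, 0.12 for Vps16 and -0.40 for Atg3), and those of Pink1 and Sqstm1, which hold none of the 3 motifs. They are the genes with the largest KO difference and the largest Dox rise. Capitals mark GTCACGTG or CACGTG on either strand, and each line reads 5′ to 3′ along the strand of the gene.
Vps33a is chr5:123572966-123573265 (minus strand), Tbk1 chr10:121586745-121587044 (minus), Vps16 chr2:130424070-130424369 (plus), Atg3 chr16:45158579-45158878 (plus), Pink1 chr4:138326247-138326546 (minus) and Sqstm1 chr11:50210771-50211070 (minus).
Vps33a: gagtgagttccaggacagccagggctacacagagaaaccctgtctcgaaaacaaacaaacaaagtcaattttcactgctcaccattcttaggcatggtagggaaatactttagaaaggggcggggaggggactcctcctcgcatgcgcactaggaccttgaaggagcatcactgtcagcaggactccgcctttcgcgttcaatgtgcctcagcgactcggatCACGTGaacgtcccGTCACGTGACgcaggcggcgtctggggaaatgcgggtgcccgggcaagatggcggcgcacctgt
Tbk1: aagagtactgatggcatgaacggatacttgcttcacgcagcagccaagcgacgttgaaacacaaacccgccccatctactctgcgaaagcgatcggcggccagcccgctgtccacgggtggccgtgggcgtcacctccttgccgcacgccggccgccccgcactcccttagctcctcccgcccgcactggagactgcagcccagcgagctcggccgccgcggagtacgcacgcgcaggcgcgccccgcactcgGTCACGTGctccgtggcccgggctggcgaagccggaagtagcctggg
Vps16: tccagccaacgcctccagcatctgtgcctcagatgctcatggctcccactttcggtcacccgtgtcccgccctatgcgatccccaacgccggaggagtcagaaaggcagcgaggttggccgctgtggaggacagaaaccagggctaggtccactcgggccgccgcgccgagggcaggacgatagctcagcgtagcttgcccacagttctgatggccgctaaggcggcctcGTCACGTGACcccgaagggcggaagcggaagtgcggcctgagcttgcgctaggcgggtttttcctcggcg
Atg3: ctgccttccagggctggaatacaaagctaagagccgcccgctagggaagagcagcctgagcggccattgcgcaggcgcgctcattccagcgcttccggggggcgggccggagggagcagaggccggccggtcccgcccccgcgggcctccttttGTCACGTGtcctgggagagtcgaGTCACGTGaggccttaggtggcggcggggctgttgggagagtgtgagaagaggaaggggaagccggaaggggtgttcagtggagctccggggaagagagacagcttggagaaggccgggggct
Pink1: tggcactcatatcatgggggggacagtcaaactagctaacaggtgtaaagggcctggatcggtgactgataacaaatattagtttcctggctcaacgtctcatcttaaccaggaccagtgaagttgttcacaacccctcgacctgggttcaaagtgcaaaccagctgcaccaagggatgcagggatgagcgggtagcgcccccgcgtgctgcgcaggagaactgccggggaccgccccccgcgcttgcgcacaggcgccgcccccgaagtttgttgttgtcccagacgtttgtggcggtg
Sqstm1: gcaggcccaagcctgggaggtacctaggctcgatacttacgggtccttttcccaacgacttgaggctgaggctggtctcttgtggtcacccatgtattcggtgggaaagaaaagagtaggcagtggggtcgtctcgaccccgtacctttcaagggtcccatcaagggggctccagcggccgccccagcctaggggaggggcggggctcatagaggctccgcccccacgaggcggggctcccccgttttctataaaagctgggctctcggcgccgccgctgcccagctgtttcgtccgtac
The match in Vps16 and the second in Vps33a are the palindrome GTCACGTGAC, read on both strands, while Atg3 holds 2 separate copies. The 6 genes with GTCACGTG thus include genes higher and lower in KO, and a match of letters is a description of the sequence, not of binding.

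Dox had small effects on these genes. In WT, 6 of the 47 rose, 24 fell and 17 did not pass, while 23.9% of all genes rose and 29.2% fell. The median log2 fold change was -0.10 over the 47 genes and -0.02 over all genes, and 0 of the 47 changed as much as 1.5-fold. The share of all genes that did so was not counted. Passing the test with at least 2-fold, 168 of all 12637 genes rose and 34 fell, so such changes were rare in the whole table. WT DMSO and WT Dox libraries did not overlap for 31 of the 47 genes, against 57.5% of all genes. All WT DMSO libraries belong to the low-pseudogene set. A term for the set is estimated only from KO DMSO replicate 1 against KO DMSO replicates 2 and 3. It therefore cannot separate set from Dox within WT. With that term, 2 of the 6 rises (Sqstm1 and Ulk3) and 17 of the 24 falls still passed. Over all genes 1267 rose and 1583 fell with it, in place of 3016 and 3690.

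Sqstm1 rose most in WT. Its libraries moved from 287, 287 and 281 CPM with DMSO to 362, 378 and 377 with Dox, with no overlap, which is 0.39 ± 0.0219 in log2 (adjusted p = 7.41e-13, edgeR). Ulk3 moved from 16.6, 16.8 and 16.7 CPM to 19.6, 21.4 and 20.3, a rise of 0.29 ± 0.0427 (adjusted p = 3.81e-06, edgeR). The other 4 rises were smaller and less firm. Atg4c moved from 10.9, 10.4 and 11.1 to 11.8, 11.9 and 11.8 CPM (0.14 ± 0.048); it did not pass with DESeq2 (0.14), with the set term (0.14) or without WT DMSO replicate 2 (0.11). Becn1 moved from 63.8, 62.1 and 66.9 to 68.6, 67.7 and 69.5 CPM (0.09 ± 0.0311); it did not pass with the set term (0.02), without WT DMSO replicate 2 (0.07) or without WT Dox replicate 3 (0.09). Atg2b (0.09) and Atg3 (0.08) each lost the call in several alternatives, with values from 0.03 to 0.12 and from 0.02 to 0.10. For Atg2b these included the fits without WT DMSO replicate 2, WT DMSO replicate 3 or WT Dox replicate 1, and for Atg3 those without WT DMSO replicate 1 or WT Dox replicate 2.

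The largest fall in WT was that of Calcoco1, from 94.2, 93 and 94.5 CPM to 66.7, 68.3 and 65.3, or -0.49 ± 0.0241 in log2 (adjusted p = 4.39e-14, edgeR). Pink1 moved from 27.2, 25 and 26.8 to 18.9, 20.9 and 20.6 CPM (-0.39 ± 0.0412, adjusted p = 3.56e-08, edgeR). Wipi1 moved from 129, 131 and 127 to 105, 103 and 103 CPM (-0.31 ± 0.0223) and Atg2a from 56.7, 55.3 and 54.7 to 45.3, 44.3 and 45.6 CPM (-0.30 ± 0.0328). In all 4 every Dox library was below every DMSO library, and all 4 falls passed in each of the 21 alternatives run, a required fold of 1.5 aside. By role, 5 of 6 initiation genes fell (Ulk1, Ulk2, Rb1cc1, Atg13 and Atg101), as did 3 of 6 nucleation genes (Atg14, Pik3c3 and Pik3r4), 3 of 6 tethers (Vps11, Vps18 and Vps41) and 3 of 11 conjugation genes (Atg12, Atg4a and Atg4b), beside the 29.2% of all genes that fell. These falls ranged from -0.28 for Atg14 to -0.07 for Atg4b. The falls of Atg101, Atg14, Atg4a, Atg4b, Atg9a, Pik3r4 and Tbk1 did not pass with the set term, at -0.09, -0.19, -0.29, -0.06, -0.14, -0.13 and -0.07 in that order. Tbk1 and Atg4b did not pass without WT DMSO replicate 3 either, and Atg4b did not without WT Dox replicate 3, without any of the KO libraries, singly or KO DMSO replicates 1 and 2 together, or with only the groups compared (lowest and highest values -0.11 and -0.07 for Tbk1, -0.09 and -0.05 for Atg4b).

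Among the ATG8 genes, Gabarap, Map1lc3b and Gabarapl2 fell in WT by 0.10, 0.11 and 0.11 on the log2 scale. Gabarap moved from 163, 162 and 159 to 146, 153 and 154 CPM, Map1lc3b from 81, 79.5 and 83.2 to 73, 76.6 and 76.3 CPM, and Gabarapl2 from 40.1, 37.6 and 38.2 to 36.3, 35.5 and 35.3 CPM. The Gabarapl2 fall did not pass without WT DMSO replicate 1 (-0.09). Gabarapl1 (80.1, 83.3 and 83 CPM with Dox) and Map1lc3a (45.1, 46.2 and 48.5 CPM) overlapped with their DMSO libraries and did not pass. Of the receptors, Nbr1 fell from 242, 239 and 244 to 214, 210 and 211 CPM (-0.19 ± 0.0213) and Tax1bp1 did not pass (202, 199 and 193 CPM with Dox, 0.00 ± 0.022). Per kilobase of exon, Sqstm1 held 54.3% ± 0.458 of the receptor transcripts in WT DMSO and 64% ± 0.794 in WT Dox (SD, n = 3 each), Nbr1 22.6% ± 0.306 and 17.8% ± 0.416, and Calcoco1 10.5% ± 0.1 and 6.73% ± 0.15.

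**Figure D4:**
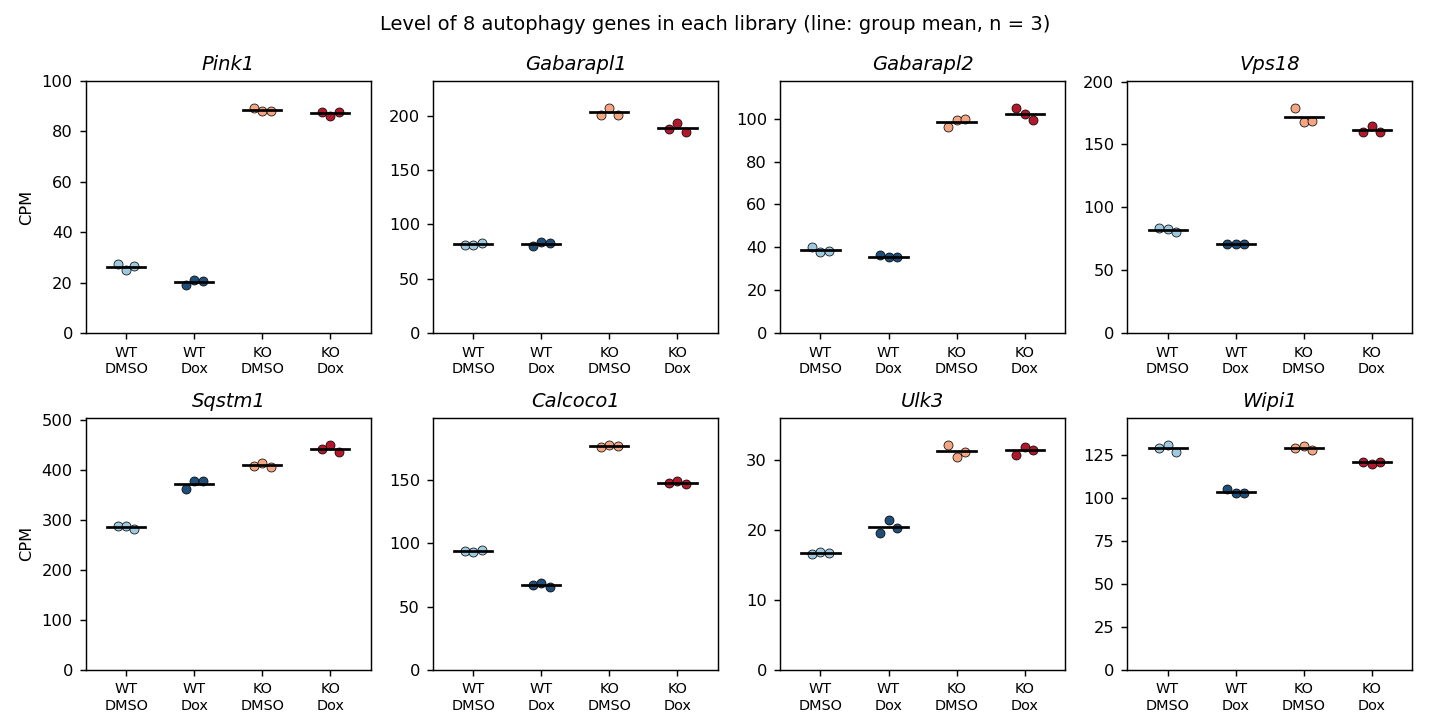
Level in CPM of 8 autophagy genes in each of the 12 libraries, with a line at the group mean (n = 3). Pink1 fell with Dox in WT while its KO libraries lie close together, Sqstm1 rose in both genotypes, and the Wipi1 libraries of WT and KO overlap with DMSO.

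In KO, Dox moved fewer of the genes. Of the 47, 3 rose, 14 fell and 30 did not pass, beside 11.6% of all genes that rose and 10.1% that fell. The medians were -0.04 over the 47 genes and -0.00 over all genes. DMSO and Dox libraries did not overlap for 25 of the 47, against 38.3% of all genes, and 0 changed as much as 1.5-fold. At 2-fold, 7 of all 12637 genes rose and 23 fell, and the share of all genes at 1.5-fold was not counted. Of the genes called in both genotypes, 12 fell in both, Sqstm1 rose in both and 0 were called in opposite directions. The WT and KO libraries are separate. How many of all genes were called in both genotypes was not counted, so this is not shown to be particular to the 47 genes.

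Calcoco1 again fell most, from 176, 178 and 177 CPM to 148, 149 and 147 (-0.26 ± 0.0216, adjusted p = 3.55e-09, edgeR). Atg9a moved from 51.4, 52.4 and 50.4 to 44.8, 45.1 and 46.4 CPM (-0.18 ± 0.0349), Tbk1 from 62, 59.8 and 61.1 to 54.4, 53.9 and 55.3 CPM (-0.16 ± 0.0274) and Pik3c3 from 57.2, 59.4 and 58.9 to 51.9, 52.2 and 53.9 CPM (-0.15 ± 0.0335). In each of these 4 genes no Dox library reached a DMSO library. Nbr1 fell from 479, 478 and 470 to 427, 427 and 441 CPM (-0.14 ± 0.0204), Wipi2 from 329, 327 and 329 to 295, 307 and 299 CPM (-0.13 ± 0.0201) and Gabarapl1 from 201, 207 and 201 to 188, 193 and 185 CPM (-0.10 ± 0.0234). Sqstm1 rose from 408, 413 and 406 to 441, 450 and 436 CPM, with no overlap (0.11 ± 0.0215, adjusted p = 4.81e-04, edgeR). Calcoco1, Nbr1, Tbk1, Vps11 and Wipi2 were the falls, and Sqstm1 the rise, that passed in each of the 21 alternatives.

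The other 2 rises in KO lost their calls when certain single libraries were left out, although every Dox library was above every DMSO library. Atg5 moved from 27.3, 27.8 and 26.1 to 30.1, 28.9 and 29.4 CPM (0.12 ± 0.0358), and did not pass without KO DMSO replicate 3 (0.10) or without KO Dox replicate 1 (0.11). Map1lc3a moved from 79.4, 80.8 and 78.3 to 86.7, 84.8 and 82.4 CPM (0.09 ± 0.0292), and did not pass without KO DMSO replicate 3 (0.08), KO Dox replicate 1 (0.08) or KO Dox replicate 2 (0.09), without TMM scaling (0.08) or with the set term (0.09). Without KO DMSO replicates 1 and 2 together, the libraries with many unmapped reads, fewer of the 47 genes and fewer of all genes fell in KO. The medians there were -0.03 over the 47 genes and 0.01 over all genes. That fit left 1 KO DMSO library, which is assumed to vary like the other groups, and Atg9a (-0.14), Pik3c3 (-0.15) and Gabarapl1 (-0.08) were among the falls that did not pass there. Some falls also ended without a single library. That of Atg14 did so without any 1 KO library (values over the alternatives -0.14 to -0.08), and that of Atg2a without KO DMSO replicate 1 or 2, any KO Dox library or WT DMSO replicate 2 (-0.10 to -0.02). The fall of Rb1cc1 ended without KO DMSO replicate 2, KO Dox replicate 1 or KO Dox replicate 2 (-0.16 to -0.10), and that of Vps18 without KO DMSO replicate 1, KO Dox replicate 1 or KO Dox replicate 3 (-0.10 to -0.05).

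The Dox effects of the genotypes were compared directly by the interaction, the Dox effect in KO minus that in WT. It was positive for 14 of the 47 genes, negative for 5 and not passed for 28, while it was positive for 18.2% of all genes and negative for 14.3%. The median was 0.06 over the 47 genes and 0.01 over all genes. Of the 14 positive genes 13 had fallen in WT, of which 8 did not pass in KO and 5 fell in both genotypes. Of the 5 negative genes 3 had risen in WT. The interaction subtracts the WT effect of the same libraries, so these overlaps are partly built in. Their share over all genes was not counted.

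Each SE of an interaction is for all 4 groups, n = 3 each. Pink1 had the largest positive interaction, 0.37 ± 0.0504 (adjusted p = 4.74e-06, edgeR). In KO its libraries were at 89.3, 88 and 88.1 CPM with DMSO and 87.6, 86.1 and 87.8 with Dox, a difference of -0.02 ± 0.0291 (adjusted p = 0.657, edgeR) beside the fall of 0.39 in WT. Calcoco1 (0.23 ± 0.0323), Wipi1 (0.22 ± 0.0312), Atg2a (0.22 ± 0.0428) and Ulk2, the second ULK kinase of initiation (0.20 ± 0.0435), followed. Wipi1 moved from 129, 130 and 128 to 121, 120 and 121 CPM in KO, a fall of 0.09 on the log2 scale, and Atg2a from 135, 127 and 125 to 121, 124 and 121 CPM, a fall of 0.08. The negative interactions were those of Ulk3 (-0.29 ± 0.0559), Sqstm1 (-0.27 ± 0.0307), Wipi2 (-0.17 ± 0.0288), Atg4c (-0.16 ± 0.0622) and Gabarapl1 (-0.12 ± 0.0352). Ulk3 in KO was at 32.2, 30.4 and 31.1 CPM with DMSO and 30.8, 31.9 and 31.5 with Dox, overlapping groups, and Wipi2 in WT was at 223, 224 and 223 CPM with DMSO and 232, 229 and 231 with Dox. Pink1, Calcoco1, Wipi1, Atg2a, Ulk2, Ulk3, Sqstm1 and Wipi2 passed in each of the 20 alternatives that give an interaction. The other 11 calls of the interaction each ended in at least 1 alternative, that of Atg4c in 15 and that of Map1lc3a in 16.

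**Figure D5:**
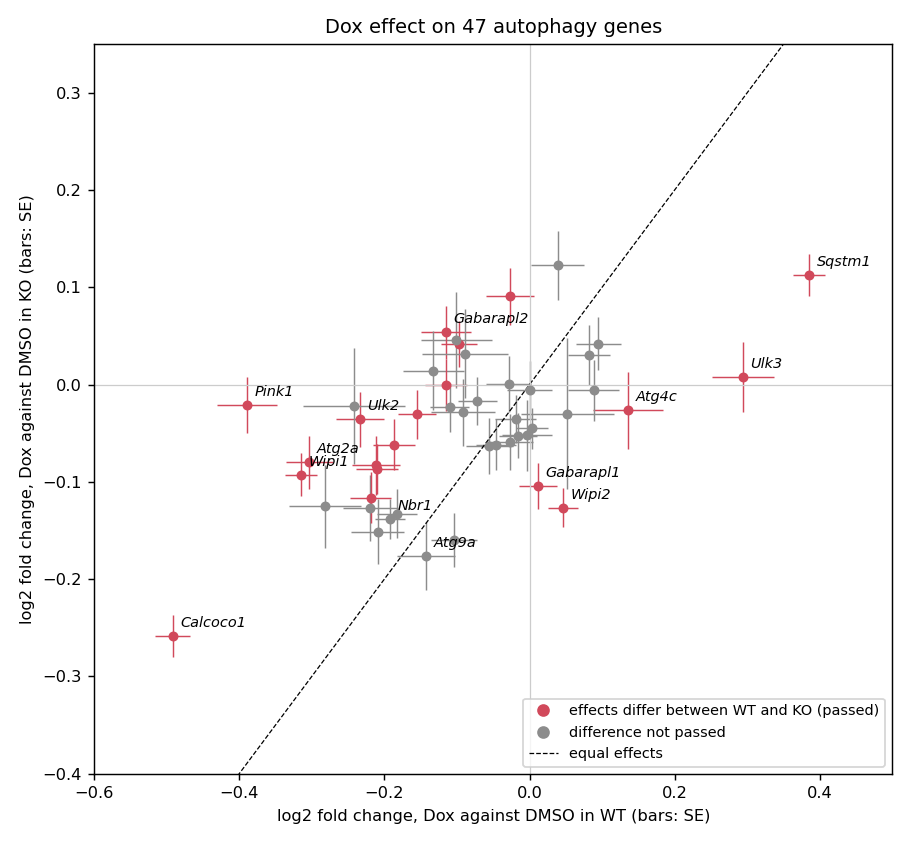
Log2 fold change with Dox in WT (horizontal axis) against that in KO (vertical axis) for the 47 genes, with SE bars; the axes have different scales and the dashed line marks equal effects. Red points passed the test of the interaction, with Pink1, Ulk2, Atg2a and Wipi1 above the line and Sqstm1, Ulk3 and Wipi2 below it.

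Genes of the pathway outside the 47 were read from lists of transcription factors, regulators, membrane supply, fusion and further receptors, 54 genes in the table; Dapk1, Ccpg1 and Stbd1 were not analysed here. In KO with DMSO 40 of the 54 were higher, 13 lower and 1 did not pass (45.1% and 44.3% of all genes were higher and lower), and with Dox 38 were higher and 16 lower (45.1% and 44.8% of all genes). All 10 fusion genes were higher in KO in both comparisons, among them Stx17, the syntaxin of mature autophagosomes (0.29 ± 0.0348 with DMSO), and Lamp2, a lysosomal membrane protein (0.49 ± 0.0223). Among 14 further receptors 11 were higher and 3 lower. Retreg1, the ER-phagy receptor FAM134B, had a mean of 0.669 CPM in WT DMSO and 12.7 in KO DMSO, the largest rise of the 54 (4.25 ± 0.0888). The mitophagy receptors went in unlike directions, with Bnip3l higher by 0.83 ± 0.0253 and Bnip3 lower by -0.52 ± 0.05. Prkaa2, a catalytic subunit of the energy sensor AMPK, had 2.16 CPM in WT DMSO and 8.22 in KO DMSO (1.92 ± 0.117). Deptor, an mTOR inhibitor, had 46.4 CPM in WT DMSO and 5 in KO DMSO (-3.21 ± 0.0579), and Vmp1, a lipid scramblase of the early phagophore, was lower by -1.10 ± 0.0254.

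The transcription factors that act on these genes differed in direction. In KO with DMSO Tfeb was higher (15.7 against 8.1 CPM, 0.95 ± 0.0679), as were Foxo1 (0.94 ± 0.0347), Ddit3 (1.15 ± 0.0385), Mitf (0.23 ± 0.0541) and Tfe3 (0.10 ± 0.0291), while Foxo3 (-0.83 ± 0.0347) and Atf4 (-0.52 ± 0.023) were lower. With Dox in both genotypes Mitf and Tfe3 turned and were lower in KO (-0.22 ± 0.054 and -0.07 ± 0.0289), and the others kept their direction (Tfeb 1.13, Foxo1 0.65, Ddit3 0.42, Foxo3 -0.66 and Atf4 -1.28). Zkscan3, a repressor of autophagy genes named here after its values were seen, was higher in KO with DMSO (0.86 ± 0.0376) and with Dox (0.78 ± 0.0377). With Dox in WT, 14 of the 54 genes rose, 21 fell and 19 did not pass, beside 23.9% and 29.2% of all genes that rose and fell. In KO 8 rose, 8 fell and 38 did not pass, beside 11.6% and 10.1% of all genes. Atf4, the integrated stress response factor that induces Sqstm1 and other autophagy genes, moved from a mean of 346 to 635 CPM in WT (0.88 ± 0.0225) and from 242 to 263 CPM in KO (0.12 ± 0.0231), with an interaction of -0.76 ± 0.0322. Ddit3, an ATF4 target that encodes CHOP, rose by 0.98 ± 0.0392 in WT and 0.25 ± 0.0334 in KO, with an interaction of -0.73 ± 0.0517. Foxo1 rose in both by 0.39 and 0.10. Trp53inp2, which carries LC3 out of the nucleus, fell in WT by 0.46 (log2, SE 0.0249) and was at -0.02 in KO, with an interaction of 0.44 ± 0.0331. Over the 54 genes the interaction was positive for 11, negative for 9 and not passed for 34, shares near the 18.2% and 14.3% of all genes.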

How the data were processed

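Polyadenylated RNA of MEFs was sequenced on a BGISEQ-500, per the labels' protocols. The authors deposited raw counts of reads per gene for 12 libraries; per the submitters' processing notes STAR 2.6.0a, HTSeq 0.10.0 and GRCm38.p6 were used, and the strand of counting and the role of each tool are not stated there. The 4 sums of unassigned reads, 17.4 to 22.9% of all reads, were left out. Depth and the lowest count of the 47 genes are given with the results.

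All 12637 genes entered 1 edgeR 4.0.16 fit (R 4.3.3; TMM, 4 group means, robust quasi-likelihood F test), with Benjamini-Hochberg adjustment over all genes and calls under 0.05. The low-count filter removed 0 genes, and 0 pairs of libraries were identical. CPM are TMM-scaled, and CPM per kb use the union of annotated exons (GENCODE M21). The SE is the log2 fold change divided by the square root of F. The common biological coefficient of variation was 2.26%. The fit was also run on simulated counts in which all genes had that same coefficient and few genes were changed. The KO comparisons are unlike this, so the simulation does not show how the fit behaves in them. Copies of genes were sought with blast 2.17.0 (at least 95% identity over 200 bases).

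Genes were named in full by a rule: up to 4 called in each direction of a comparison, plus the ATG8 and receptor genes. The genes, lists and rules were chosen with earlier results of these data known. Alternatives were median-ratio scaling, no TMM, a filter of 1 CPM in 6 libraries, DESeq2 1.42.0, a fit of just the groups compared, a replicate block, a term for the low-pseudogene set, a fold of at least 1.5, each library left out and, added after seeing the data, KO DMSO replicates 1 and 2 left out together and protein-coding genes alone.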

Additional observations from a re-analysis of the deposited data

Results flagged for a closer look

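For 19 of the 47 genes the Dox effect in KO differed from that in WT by the test of the interaction (edgeR, adjusted p under 0.05; KO minus WT, log2). Positive values were 0.37 for Pink1, 0.23 for Calcoco1, 0.22 for Atg2a, 0.22 for Wipi1, 0.20 for Ulk2, 0.17 for Gabarapl2, 0.14 for Gabarap, 0.13 for Pik3r4, 0.12 for Atg13, 0.12 for Atg12, 0.12 for Vps18, 0.12 for Map1lc3a, 0.11 for Vps41 and 0.10 for Ulk1. Negative values were -0.29 for Ulk3, -0.27 for Sqstm1, -0.17 for Wipi2, -0.16 for Atg4c and -0.12 for Gabarapl1. With a term for the low-pseudogene set, 12 of the 19 still passed with the same sign (9 positive and 3 negative). Over all genes 1653 interactions were positive and 1212 negative with that term, in place of 2295 and 1812. The term is estimated only from KO DMSO replicate 1 against KO DMSO replicates 2 and 3, so it cannot separate set from Dox within WT.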

How the results depend on the processing

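In the KO comparisons 39 of 40 rises and 3 of 4 falls with DMSO, and all 42 and 3 with Dox, passed with the same sign in each of 21 alternatives, the 1.5-fold rule aside. How many calls of all genes did so was not counted. Without TMM scaling the median of all genes moved to 0.17 with DMSO and 0.14 with Dox, and that of the 47 genes to 0.79 and 0.85. Requiring 1.5-fold ended part of the KO rises, among them those of Atg12 (0.27), Uvrag (0.36) and Gabarap (0.42) with DMSO and Sqstm1 (0.25) with Dox. It left 1 gene lower in KO with DMSO and 1 with Dox, and 0 in either direction for Dox in WT, Dox in KO and the interaction. How many of all genes met the 1.5-fold rule was not counted. Rises with Dox in WT numbered 3 with DESeq2 and 2 with the set term, beside 2703 and 1267 over all genes (3016 in the main fit). Negative interactions numbered 3 with the set term, beside 1212 over all genes (1812 in the main fit). Without KO DMSO replicates 1 and 2 together, fewer of the 47 genes and fewer of all genes fell with Dox in KO or passed the interaction. The medians of the 47 genes there were -0.03 for Dox in KO and 0.04 for the interaction, against 0.01 and 0.00 over all genes. With single libraries left out, rises and falls numbered 3 to 7 and 23 to 25 for Dox in WT and 1 to 3 and 10 to 16 for Dox in KO. For the interaction they numbered 8 to 15 and 4 to 5. Over all genes they ran from 2633 to 3488 and 3166 to 3853 for Dox in WT. For Dox in KO they ran from 1130 to 1822 and 766 to 1647 over all genes, and for the interaction from 1719 to 2595 and 1515 to 1987. The lowest counts among the 47 genes came without WT DMSO replicate 2 (3 rises in WT) and without KO DMSO replicate 3 or KO Dox replicate 1 (1 rise in KO). For positive interactions the lowest count, 8, came without KO DMSO replicate 2, KO Dox replicate 1 or KO Dox replicate 2. For Dox in WT the sign changed in at least 1 alternative for 8 genes that had not passed: Fundc2 (in 13), Vps33a (9), Vps16 (5), Tax1bp1 (2), and Gabarapl1, Atg16l2, Uvrag and Vps39 (1 each). Gabarapl1 was at -0.01 with the set term, and Tax1bp1 at -0.05 with it and between -0.01 (without WT Dox replicate 1) and 0.02 with single libraries left out. The causes were not tested. Replicate numbers do not pair the samples (correlations of deviations -0.11 to 0.11). With a replicate block 40 genes were higher and 4 lower in KO with DMSO, 24 fell with Dox in WT and 13 in KO. Over all genes these numbered 5703, 5593, 3679 and 1243 in that order. Only the groups compared could not be used for the interaction, which needs all groups. Each group has 3 libraries, and whether they are separate cultures and which strand was counted are unknown.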
